A study of Mus musculus with 12 samples.

Results

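H3K9me3 peaks of adult mouse liver were compared between an Alb-D2KO animal and a control animal, using the autosomal peaks that had been called for each H3K9me3 library over its own input library. The list of the Alb-D2KO liver held 270434 such peaks and that of the control liver 275607, which together are 546041 of the 1667636 peaks of all chromosomes in the 6 lists over input of the series. The members were chosen by genotype, age and chromosome alone, and no measured value entered that rule, although earlier results of these data were known. The series holds 12 samples, an H3K9me3 library and an input library for each genotype at 3 ages, 1 day (P1) and 5 days (P5) after birth and adult. The Alb-D2KO animals were mice of strain C57BL/6 by the labels and C57BL/6J by the study's methods, carrying floxed alleles of Dio2, the gene of the type 2 deiodinase (D2), and a Cre recombinase driven by the albumin promoter, so that the deletion is aimed at hepatocytes and other liver cells keep the gene. The control animals carried the Cre recombinase without the deletion. The neonatal libraries came from pooled livers and the adult ones from livers processed individually, and the labels give no age in weeks for the adults. With 1 library per genotype at each age there is no spread between replicates, no difference below was tested, and differences between the genotypes and between these 2 animals cannot be told apart.

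H3K9me3 is laid down on the tail of histone H3 by methyltransferases such as SETDB1 and SUV39H1 and is read by HP1 proteins, which keep chromatin compact. In most tissues it covers satellite and transposon sequence, clusters of zinc finger genes and the large families of olfactory and vomeronasal receptor genes, and in liver it also helps to keep genes of other lineages silent. D2 makes the active thyroid hormone T3 from its precursor T4, and liver has D2 for a short time around birth, which is why the study looked at the neonatal and the adult chromatin of animals without it.

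The sequences below are 200 bases each from windows on which the comparison turned, and for Skint from a whole block. Each comes from the strongest peak there that is not labelled as untranslated region and has room for a stretch free of exons. It is taken at the middle of the part of that peak inside the window or block. The bases are read from the forward strand of GRCm38 (mm10), with every CG dinucleotide, the unit that DNA methylation marks, in capitals. The first pair lies in windows of chromosome 7 that were covered in Alb-D2KO and nearly bare in control, at chr7:20349901-20350100 and chr7:22098270-22098469. Neither overlaps an annotated gene, and they have 4 and 2 CG dinucleotides. They occur 3 and 4 times in the reference, counting the site itself.
Vmn1r block, first window: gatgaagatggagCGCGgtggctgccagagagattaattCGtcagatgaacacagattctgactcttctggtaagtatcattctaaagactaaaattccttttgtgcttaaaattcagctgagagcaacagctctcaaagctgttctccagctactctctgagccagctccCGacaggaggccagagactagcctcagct
Vmn1r block, second window: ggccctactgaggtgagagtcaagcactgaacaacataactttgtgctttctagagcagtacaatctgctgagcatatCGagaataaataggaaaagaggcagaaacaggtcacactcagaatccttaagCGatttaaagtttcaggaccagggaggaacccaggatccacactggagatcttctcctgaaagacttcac

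The next stretch lies in an intron of Skint6 in a block of chromosome 4 that was covered more in Alb-D2KO at every age (chr4:113228851-113229050, 3 CG, 100% of its bases marked as repeat in the reference). It was chosen after the values were seen.
Skint block: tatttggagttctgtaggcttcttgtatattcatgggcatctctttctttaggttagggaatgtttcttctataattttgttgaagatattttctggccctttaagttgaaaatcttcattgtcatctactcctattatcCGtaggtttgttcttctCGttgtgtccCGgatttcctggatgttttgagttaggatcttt

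The following 3 come from windows with more coverage in control. They lie between genes at chr7:7416399-7416598 (2 CG), in an intron of Cep128 at chr12:91145118-91145317 (4 CG, 0% repeat) and in an intron of Pcgf5 at chr19:36365226-36365425 (1 CG, 11% repeat). Each occurs 1 time in the reference, and the last pair was added after the values were seen.
Vmn2r window of chromosome 7: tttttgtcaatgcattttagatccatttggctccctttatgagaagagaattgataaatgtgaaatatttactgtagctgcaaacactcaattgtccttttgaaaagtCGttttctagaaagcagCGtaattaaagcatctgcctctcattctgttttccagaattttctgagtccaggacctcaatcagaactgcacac
Cep128 window of chromosome 12: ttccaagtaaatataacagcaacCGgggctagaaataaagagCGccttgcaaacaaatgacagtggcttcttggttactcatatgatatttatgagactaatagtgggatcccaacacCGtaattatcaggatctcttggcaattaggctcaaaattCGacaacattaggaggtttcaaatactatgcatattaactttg
Pcgf5 window of chromosome 19: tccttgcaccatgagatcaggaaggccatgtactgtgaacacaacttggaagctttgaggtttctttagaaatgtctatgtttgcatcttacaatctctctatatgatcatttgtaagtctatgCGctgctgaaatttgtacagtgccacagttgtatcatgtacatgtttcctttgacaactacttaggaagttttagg

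The last pair comes from the windows with the most coverage in both livers, in introns of the non-coding genes C230088H06Rik and Gm26624 at chr4:147349901-147350100 (1 CG) and between genes at chr5:104649901-104650100 (0 CG).
Zinc finger cluster of chromosome 4, covered in both: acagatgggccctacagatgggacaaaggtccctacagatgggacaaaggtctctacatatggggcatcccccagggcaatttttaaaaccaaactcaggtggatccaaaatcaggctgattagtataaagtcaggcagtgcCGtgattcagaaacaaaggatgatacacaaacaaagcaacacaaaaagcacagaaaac
Intergenic window of chromosome 5, covered in both: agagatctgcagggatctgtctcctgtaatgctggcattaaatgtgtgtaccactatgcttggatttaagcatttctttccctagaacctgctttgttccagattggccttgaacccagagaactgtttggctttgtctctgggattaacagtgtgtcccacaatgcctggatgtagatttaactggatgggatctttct

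Across the autosomes the adult lists were close in extent. Peaks covered 382 Mb (15.5% of the autosomes) in Alb-D2KO and 396 Mb (16.1%) in control, a ratio of 0.966. Their median width was 807 bp and 821 bp, and the median fold enrichment over input 1.84 in both. Of the Alb-D2KO peaks, 56.0% overlapped a control peak by at least 1 base, and of the control peaks 54.4% overlapped an Alb-D2KO peak. The peaks with no partner were narrow, with a median width of 560 bp in Alb-D2KO and 569 bp in control, against 1186 bp and 1250 bp for those with a partner. Of the 540 Alb-D2KO peaks at least 20 kb wide 1 had no partner, and of the 516 control peaks 1 had none.

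The widest of these lone Alb-D2KO peaks were 22.5 kb, 18.04 kb and 16.8 kb wide, and each lay on chromosome 7 between 21472455 and 23248151. The widest lone control peaks were scattered. They were an intergenic peak of 20.6 kb at chr5:138479261-138499894, a peak of 10.4 kb at Zfp128 on chromosome 7 and a peak of 9.92 kb at 5430427M07Rik on chromosome 12. Chromosome 7 also stood out in the totals, where peaks covered 27.2 Mb in the Alb-D2KO liver against 23.5 Mb, a ratio of 1.16. On chromosome 4 the ratio was 1.01, and on every other autosome it was under 1, down to 0.922 on chromosome 19.

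The autosomes were cut into windows of 100 kb, and 20553 of them held peak bases in at least 1 of the livers. A window was called higher on one side where that side had at least 20 kb covered and at least 2 times the bases of the other. By this rule 90 windows were higher in Alb-D2KO (0.438% of the windows compared) and 46 were higher in control (0.224%). In 19457 windows (94.7%) the livers differed by 10 kb or less, the median difference was −0.43 kb (Alb-D2KO minus control), and 681 windows were alike, with at least 50 kb covered in both and a difference of 10% or less. The excess of Alb-D2KO calls rested on 1 chromosome, since 60 of the 90 windows lay on chromosome 7 and 30 remained without it, beside 45 for control. With the peaks limited to those with −log10 p above 2 the counts were 132 and 141, with −log10 p above 3 they were 15 and 33, and with a minimum of 10 kb they were 156 and 157.

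**Figure D1:**
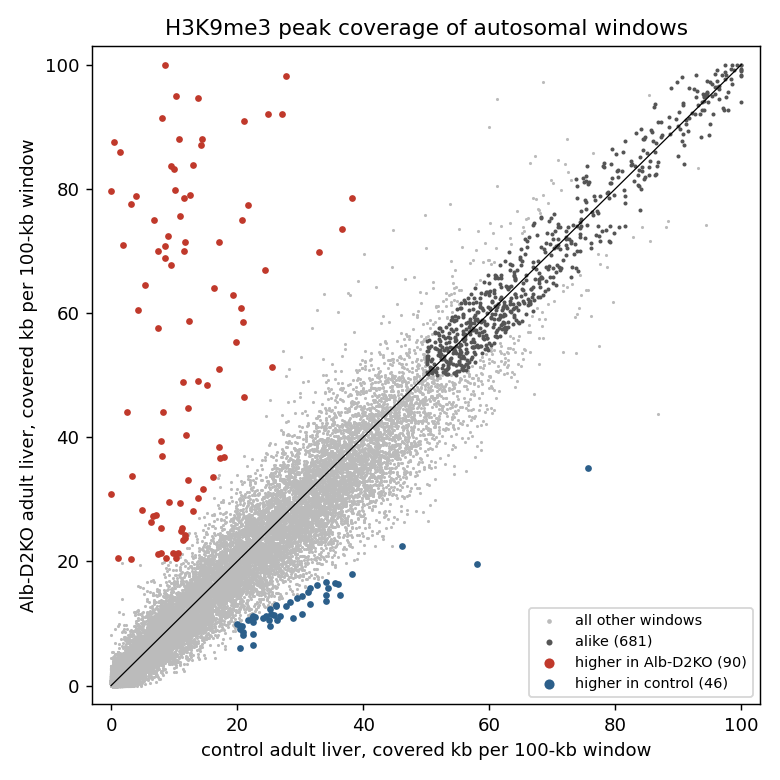
Covered kb per 100-kb window in control (x axis) and Alb-D2KO (y axis) adult liver, for the 20553 autosomal windows with a peak in either; the line marks equal coverage. The 90 windows higher in Alb-D2KO run up to full coverage at under 40 kb in control, whereas the 46 windows higher in control stay close to the cloud of other windows, apart from a few.

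The differences had another shape on each side. In 38 windows Alb-D2KO exceeded control by at least 50 kb, 33 of them on chromosome 7 and 5 on chromosome 4, and no window exceeded that size in favour of control. At a limit of 3-fold, 60 windows remained for Alb-D2KO and 2 for control. Called windows of the same side were joined into blocks where at most 2 windows lay between them. This joining was added after the values were seen. It gave 4 blocks with at least 5 called windows, all higher in Alb-D2KO, and they held 60 of the 90 windows.

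The largest block was a run of 33 windows, every one of them called, at chr7:20000001-23300000. It holds 60 genes of the Vmn1r family, 49 of them protein-coding, which encode pheromone receptors of sensory neurons in the vomeronasal organ and are silent in liver. Peaks covered 2656 kb (80.5%) of the block in Alb-D2KO and 388 kb (11.8%) in control. Per window, coverage ran from 44.1 kb to the whole 100 kb in Alb-D2KO and from 0 to 27.7 kb in control. Over the autosomes 0.438% of windows were called this way. The block was joined from such called windows, so the gap between the ranges is in part given by the calling rule and is no further support. The 10 windows with the largest difference in favour of Alb-D2KO all lay here.

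The first of them, chr7:20300001-20400000, was covered over all its 100 kb in Alb-D2KO and over 8.62 kb in control. The next, chr7:22000001-22100000 with Vmn1r138 and Vmn1r139, had 87.6 kb and 0.42 kb, and chr7:22800001-22900000 with Vmn1r159 and Vmn1r160 had 94.9 kb and 10.3 kb. The window of Vmn1r107, chr7:20600001-20700000, had 79.7 kb in Alb-D2KO and was bare in control. The other 6 had from 77.6 to 94.7 kb in Alb-D2KO and from 1.41 to 13.7 kb in control. The block held 480 Alb-D2KO peaks with a median width of 2611.5 bp and a widest of 122 kb, and 396 control peaks with a median width of 647.5 bp and a widest of 8.56 kb. The windows were called on covered bases, so wider or more peaks in Alb-D2KO are in part given by the rule.

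The receptor genes of the block lie in windows called for Alb-D2KO from these same peaks, so their order is in part given by the rule. By gene body, with limits of 2-fold and 5 kb, 13 of the 138 covered genes of the block were called for Alb-D2KO. Over all genes the share was 0.796%. Peak bases lay in 59 of the 60 Vmn1r genes in Alb-D2KO and in 10 in control, and 37 genes were covered over their whole length in Alb-D2KO against 1, Vmn1r103, in control. Coverage was higher in Alb-D2KO for 56 genes, and higher in control for 2, Vmn1r121 (0.32 kb in Alb-D2KO, 0.43 kb in control) and Vmn1r129 (0.22 kb and 0.41 kb). Vmn1r139, the longest of them in the annotation, had 25.5 of its 28.9 kb covered in Alb-D2KO and none in control. Nlrp9b, a member of the NLR family, lies in the same block and had 36.5 kb and 20.2 kb.

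The same block gave other values in the neonatal livers. At P1 it was covered over 93.4% in Alb-D2KO and 92.9% in control. At P5 the order was the opposite of that in the adult, with 67.5% in Alb-D2KO and 87.2% in control, and control was higher in each of the 33 windows. Over the summed length of the Vmn1r genes, adult coverage was 80.7% in Alb-D2KO and 5.40% in control. It was 98.9% against 95.8% at P1 and 67.4% against 95.1% at P5, each time with Alb-D2KO first.

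**Figure D2:**
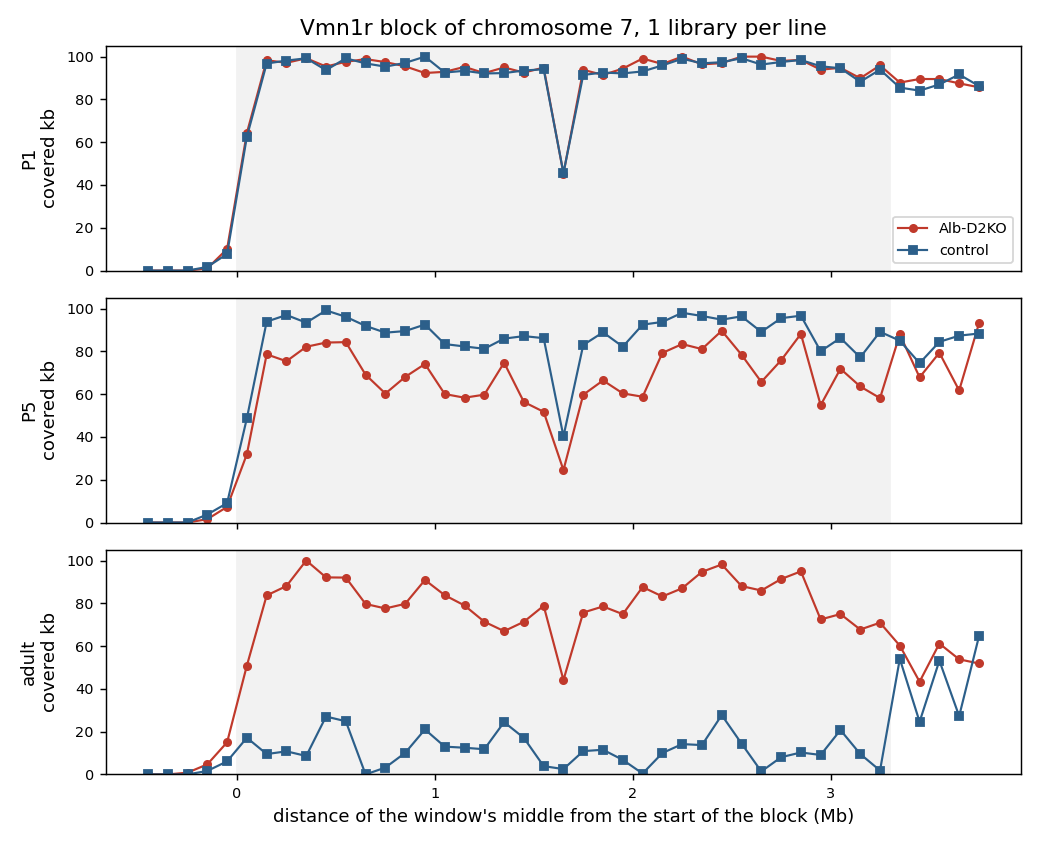
Covered kb per 100-kb window along the Vmn1r block of chromosome 7 and 500 kb to each side, against the distance from the start of the block in Mb, for P1, P5 and adult libraries (Alb-D2KO red circles, control blue squares, block shaded). The lines overlie each other at P1, control is higher in all 33 windows at P5, and Alb-D2KO is higher in all 33 in the adult. The 33 windows were called by the adult order.

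The block is made of sequence that exists in many near-identical copies. Of 32-base stretches sampled every 500 bases, a mean of 96.4% per window (52.0 to 100%) had a second exact copy in the reference, and 66.3% of the bases are marked as repeat. How reads that align to several places were treated is not given in the sources used here, and the part of this in the difference was not tested. The median background level implied by the listed pileup and fold enrichment, (pileup + 1)/fold − 1, was 2.61 for the Alb-D2KO peaks of the block and 2.47 for the control peaks, beside a most frequent level of 2.44 and 2.46 over each whole list. Limited to peaks with −log10 p above 2, the block had 1387 kb in Alb-D2KO against 133 kb in control. Above 3, a limit that 1299 and 1417 peaks of the whole lists passed, it had 2.28 kb and 13.5 kb, so that the order turned. Of the 10 named windows 7 then had the same value in both livers, 1 was higher in Alb-D2KO and 2 in control. The q-value was under 0.05 for 1 of the 480 Alb-D2KO peaks and 2 of the 396 control peaks there. Over the whole lists it was so for 501 of 270434 Alb-D2KO peaks and 562 of 275607 control peaks.

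A pair of smaller blocks on chromosome 7 followed the same order across the ages. The first, chr7:17100001-17900000 with 6 called windows, holds Psg16 and Psg29, which encode pregnancy-specific glycoproteins of the placenta, and Ceacam3, Ceacam5 and Ceacam14 of the related family of adhesion molecules. It had 510 kb (63.8%) covered in Alb-D2KO and 189 kb (23.6%) in control. Within it the body of Psg16 had 24.9 kb and 4.38 kb, and that of the non-coding Gm32772 70.3 kb and 19.1 kb. Ceacam5, by contrast, had 25.04 kb in Alb-D2KO against 25.29 kb in control, and Psg29 had 1.46 kb against 1.84 kb. Summed over the 3 Ceacam genes, adult coverage came to 28.6 kb and 27.5 kb. For the 3 Psg genes, 2 of them protein-coding, the sums were 32.5 kb and 10.9 kb. Each of these Ceacam genes had more covered bases in Alb-D2KO at P5, whereas each Psg gene had more in control. The block was covered over 81.4% and 79.1% at P1 and over 55.1% and 73.1% at P5.

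The second, chr7:32000001-33200000 with 10 called windows, holds 24 genes of the Scgb family, 12 of them protein-coding, whose secretoglobins form the androgen-binding proteins of saliva and tears. Coverage was 336 kb (28%) in Alb-D2KO against 78.4 kb (6.53%) in control in the adult, beside 89.1% and 88.9% at the age of 1 day and 48.0% and 76.5% at P5. In the adult 9 of the 24 Scgb genes had peak bases in Alb-D2KO and 1, Scgb1b11, in control, where it had 0.63 kb beside 0.98 kb in Alb-D2KO. In the pair of blocks the share of 32-base stretches with a second copy was 57.0% and 92.3%. At P5 control was higher in all 8 windows of the Psg and Ceacam block and in all 12 of the Scgb block. In the adult Alb-D2KO was higher in all of them. That adult order is mostly given by the rule, since 6 of the 8 and 10 of the 12 had been called for Alb-D2KO there. With −log10 p above 2 the first block had 141 kb against 48.3 kb and the second 83.6 kb against 29.1 kb, and above 3 the order turned, with 1.11 kb against 5.54 kb and 0.313 kb against 3.41 kb.

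The block on chromosome 4, chr4:112100001-113400000 with 11 called windows, kept its order at all ages. It spans 6 genes of the Skint family, which encode immunoglobulin-like membrane proteins of skin and thymus, the best known of which is needed for the γδ T cells of the epidermis. Coverage was 739 kb (56.9%) in Alb-D2KO against 209 kb (16.1%) in control in the adult, beside 63.5% and 36.2% at the age of 1 day and 77.1% and 27.1% at P5. All 13 windows of the block were higher in Alb-D2KO at P1 and at P5, and 12 of 13 in the adult. The adult count is largely given by the rule, since 11 of the 13 had been called for Alb-D2KO from these same adult peaks. The share of 32-base stretches with a second copy was 29.4%, lower than in the blocks of chromosome 7.

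Each of the 6 Skint genes had more covered bases in Alb-D2KO. Skint6, the longest with a body of 482 kb, had 274 kb in Alb-D2KO against 84.0 kb in control in the adult, beside 279 kb and 154 kb at the age of 1 day and 355 kb and 126 kb at P5. Skint3 had 38.8 kb and 1.97 kb, Skint9 31.9 kb and 1.81 kb, Skint4 59.2 kb and 9.75 kb, and Skint2 52.5 kb and 20.8 kb. Skint10 was the least different, with 33.9 kb and 30.9 kb. Over the summed length of the family the livers had 57.5% and 17.5%. The widest peak of the block was 16.1 kb in Alb-D2KO against 5.70 kb in control, and with −log10 p above 2 the block had 179 kb and 24.5 kb. Above 3 it had none and 1.12 kb, and no peak of the block had a q-value under 0.05 in either list.

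**Figure D3:**
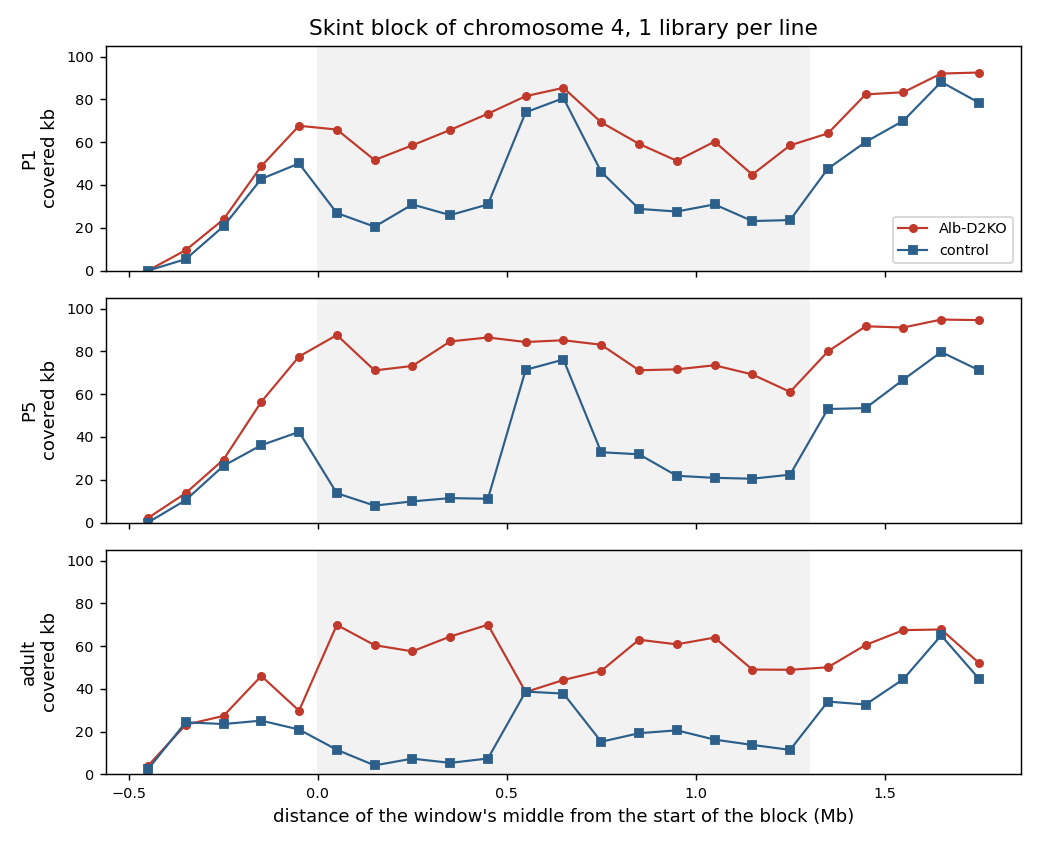
Covered kb per 100-kb window along the Skint block of chromosome 4 and 500 kb to each side, against the distance from the start of the block in Mb, at P1, P5 and in the adult (Alb-D2KO red circles, control blue squares, block shaded). Alb-D2KO lies above control in all 13 windows at P1 and P5 and in 12 of 13 in the adult. Of the 13 windows, 11 were called by the adult order. The lines meet in the middle of the block, where control also has much coverage.

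Outside the blocks 30 windows were called for Alb-D2KO. The largest of them in covered length was chr1:179300001-179400000, inside Smyd3, a methyltransferase gene, with 78.5 kb in Alb-D2KO against 38.3 kb in control. There the neonatal livers had between 0.475 and 1.72 kb, far below both adult values. At chr7:26000001-26100000, with Cyp2b13 of the P450 family, Alb-D2KO had 30.9 kb and control none, beside, at P1, 50.6 kb and 43.9 kb and, at P5, 12.96 kb and 35.1 kb. A run of 3 windows at chr7:3700001-4000000 carries Pira2, Pirb and Lilra6, immunoglobulin-like receptors of leukocytes, and had 20.4 to 21.4 kb in Alb-D2KO and 3.10 to 9.79 kb in control. The window of Aurkc, the aurora kinase of meiosis, had 58.8 kb and 12.4 kb, and a run at chr2:100500001-100800000 without protein-coding genes had 27.3 to 39.4 kb and 6.63 to 12.1 kb. At P1 these 3 windows had between 64.5 and 84.4 kb in either liver. Of the 30 windows, 14 had a second copy for at least 50% of the 32-base stretches, beside 2.78% of the windows that were neither called nor alike.

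Windows with more coverage in control were spread over 15 chromosomes with 1 to 7 calls each, and at most 3 of them joined. The rule for naming windows went by the difference in covered bases, and 4 of the 10 windows so named passed the 2-fold limit. The pair with the largest difference lay in a cluster of Vmn2r genes, the other family of vomeronasal receptors, at chr7:7300001-7500000. There the window of Vmn2r32 had 43.7 kb in Alb-D2KO against 86.8 kb in control, a ratio of 1.99 that just missed the limit, and that of Vmn2r30, Vmn2r31 and the chloride transporter gene Clcn4 had 35.1 kb and 75.7 kb. With −log10 p above 2 the values were 3.90 kb against 82.1 kb and 3.01 kb against 48.3 kb. In the neonatal livers the windows were covered over 66.7 to 95.4 kb. A further Vmn2r window, chr7:8400001-8500000 with Vmn2r45, had 54.8 kb and 77.5 kb.

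Of the 20 windows in the 2 Mb around Dio2, a span chosen after the values were seen, 4 were called for control, beside 0.224% of all windows. Dio2, at chr12:90724552-90738438 on the reverse strand, had no peak in either adult list, nor did Alb, the gene whose promoter drives the Cre recombinase. The nearest peak to Dio2 was 1.33 kb away in Alb-D2KO and 4.87 kb away in control. The deletion cannot be seen in peak lists, and the reads were not analysed here, so the genotype was not checked. At 262 kb from the gene, towards larger coordinates, the window chr12:91000001-91100000 had 8.62 kb in Alb-D2KO against 20.9 kb in control, and the next, chr12:91100001-91200000, had 19.6 kb and 58.1 kb. Both lie in Cep128, which encodes a protein of the centriole. The window chr12:91400001-91500000, in Tshr, the receptor gene of thyroid-stimulating hormone, had 6.61 kb and 22.5 kb, and chr12:90200001-90300000, in Nrxn3, a synaptic adhesion gene, 15.1 kb and 31.3 kb.

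Over the whole 2 Mb, chr12:90000001-92000000, the livers had 339 kb and 437 kb. There 13 windows were higher in control and 6 in Alb-D2KO. At P1 the span had 376 kb in Alb-D2KO against 388 kb in control, and at P5 419 kb and 409 kb. The second Cep128 window had between 6.08 and 10.8 kb in the neonatal livers, below both adult values. By gene body Cep128 had 89.3 kb in Alb-D2KO against 144 kb in control, and Tshr 7.70 kb and 23.6 kb.

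**Figure D4:**
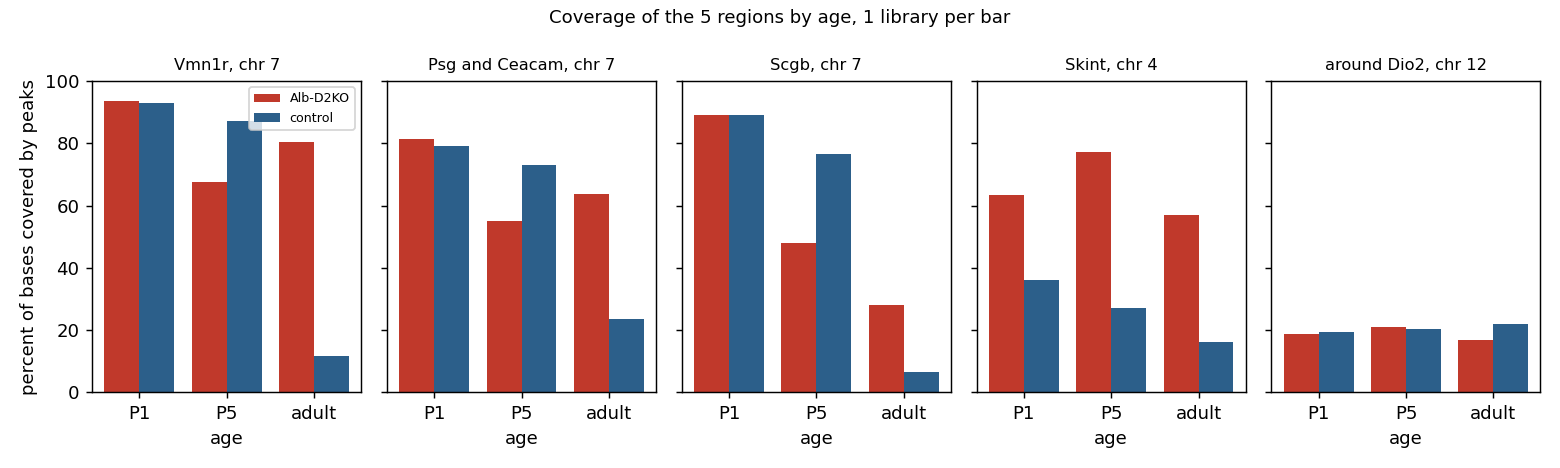
Percent of bases covered by peaks in the 4 blocks and in 2 Mb around Dio2 at P1, P5 and in the adult, 1 library per bar (Alb-D2KO red, control blue). The 3 blocks of chromosome 7 have similar bars at P1, the higher one in control at P5 and in Alb-D2KO in the adult, the Skint block is higher in Alb-D2KO at each age, and the region around Dio2 differs by a few percentage points.

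The other named windows with more coverage in control lay in unrelated genes or in none. In chr19:36300001-36400000, inside Pcgf5, a subunit of Polycomb complexes, there were 14.6 kb in Alb-D2KO against 36.3 kb in control, and at most 2.01 kb in a neonatal liver. The windows of Gabrg1, a subunit of GABA receptors, on chromosome 5 (22.5 kb and 46.2 kb) and of Cntn6, a contactin of neurons, on chromosome 6 (22.4 kb and 44.6 kb) had between 65.5 and 78.1 kb in the neonatal livers. Windows without protein-coding genes on chromosome 6 at 18700001 (26.6 kb and 50.3 kb), on chromosome 4 at 71600001 (34.6 kb and 56.3 kb) and on chromosome 15 at 49300001 (29.9 kb and 51.4 kb) completed the list. For the first of these the order turned with −log10 p above 2, with 9.01 kb in Alb-D2KO against 8.08 kb in control.

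Called windows were followed to the neonatal ages, which use other animals and other libraries. Of the 90 windows higher in Alb-D2KO, 58 (64.4%, Wilson 95% interval 54.2 to 73.6) were also covered more in Alb-D2KO at P1 and 27 (30%, 21.5 to 40.1) at P5, beside 49.8% and 50.8% of all windows compared. Without chromosome 7 the shares were 63.3% at P1 and 76.7% at P5 of 30 windows. Of these, 11 lay in the Skint block and were all covered more in Alb-D2KO at both ages. In the other 19, 8 (42.1%, 23.1 to 63.7) were covered more in Alb-D2KO at P1 and 12 (63.2%, 41.0 to 80.9) at P5. Of the 46 windows higher in control, 22 (47.8%, 34.1 to 61.9) were covered more in control at P1 and 19 (41.3%, 28.3 to 55.7) at P5, beside 45.4% and 46.4% of all windows. None of these 46 passed the limits for control at P1 or P5, whereas 6 and 11 of the 90 passed those for Alb-D2KO, all of them in the Skint block, and 2 of the 90 passed those for control at P5. The intervals cover counting error only, and neighbouring windows are not independent.

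The adult livers were less alike than the neonatal pools. By the same limits 19 windows at P1 and 24 at P5 were higher in Alb-D2KO, and 7 at each age were higher in control. Pearson's r across windows was 0.949 in the adult (20553 windows), 0.988 at P1 and 0.985 at P5, and the SD of the difference was 5.63, 4.15 and 4.56 kb. Without chromosome 7 the adult values were 0.963 and 4.67 kb. Windows share depth and sequence within a library, and the neonatal samples were pools of livers whereas each adult sample was 1 liver.

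Windows called for each side differed in sequence. The median share of 32-base stretches with a second copy was 89.8% in the 90 windows higher in Alb-D2KO, 45.2% in the 30 of them outside the blocks, 12.5% in the 46 windows higher in control, 36.5% in the 681 alike windows and 12.5% in the other 19736. A share of at least 50% was found in 61 of the 90, in 1 of the 46 and in 204 of the 681, beside 548 (2.78%) of the other 19736. The windows higher in control were thus near the other windows in this share. The median repeat content was 58.4% in windows higher in Alb-D2KO, 35.4% in those higher in control and 53.0% in alike windows. The median GC content lay between 38.0% and 40.8% in all these groups.

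Genes were compared in the first place by the gene name that the lists give each peak, with the same 2-fold limit and at least 5 kb on the larger side. Of 19399 named genes, 861 (4.44%) were higher in Alb-D2KO and 870 (4.48%) in control. Each peak carries 1 name only, and of the peaks at least 20 kb wide 35.2% in Alb-D2KO and 32.9% in control spanned at least 2 annotated genes, so that a wide domain can be credited to one gene in one list and to its neighbour in the other. Zfp978 shows this. It had no named peak in Alb-D2KO and 130 kb in control, whereas its body of 29.7 kb was covered whole in both. Gm13212 had 88.3 kb by name in Alb-D2KO and none in control, and its body of 40.2 kb was likewise covered whole in both.

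The 10 largest differences by name were mostly of this kind on either side. For Alb-D2KO the names were Vmn2r-ps18 (304 kb and 61.5 kb), Skint6 (244 kb and 79.5 kb), Vmn1r244 (122 kb and none), AU041133, Gm20707, Gm49359, Zfp442, Gm13212, Gm4558 and Gm18262. For control they were Gm8258 (85.0 kb in Alb-D2KO against 275 kb in control), Zfp978, Vmn2r-ps106 (61.2 kb and 171 kb), Gm2544, Gm13165, Zfp960, 3300002I08Rik, Zfp534, Zfp984 and Vmn2r57. By body, the 10 control names differed by at most 1.06 kb. Of the Alb-D2KO names, Skint6 kept a large difference, and Gm4558, a pseudogene of 0.52 kb in the Vmn1r block, was covered whole in Alb-D2KO and bare in control. Vmn1r244 has no body under that name in the annotation used.

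Bases within the annotated gene body, which do not depend on the name given to a peak, were therefore compared as well. Of 17592 genes with covered bases, 140 (0.796%) were higher in Alb-D2KO and 192 (1.09%) in control. Of the 140, 9 were among the 17 covered genes of the Skint block, 13 among the 138 of the Vmn1r block and 4 among the 15 of the Psg and Ceacam block. None of the 21 covered genes of the Scgb block was called. Of the genes called by name, 10.8% of those for Alb-D2KO and 17.1% of those for control were also called by body. The ranking by body was added after the values were seen. Among protein-coding genes the 10 with the largest difference in favour of Alb-D2KO were Skint6, Skint4, Skint3, Skint2, Skint9, Vmn1r139, Psg16, Cachd1, Aven and Nlrp5.

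The last 3 lie outside the blocks. Cachd1, a subunit related to those of calcium channels, had 34.7 kb in Alb-D2KO against 17.4 kb in control, beside 6.88 kb against 7.22 kb at P1 and 16.5 kb against 7.86 kb at P5. Aven, an inhibitor of apoptosis, had 16.0 kb and 4.88 kb, and Nlrp5, a maternal factor of the oocyte, 19.6 kb and 9.19 kb.

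In favour of control the largest differences were those of Pcgf5 (14.5 kb in Alb-D2KO against 36.3 kb in control), Enpp6, a choline-specific phosphodiesterase (13.7 kb and 33.2 kb), St6galnac3, a sialyltransferase (14.9 kb and 31.1 kb), and Tshr. Gm7697, Apbb2, an adaptor of the amyloid precursor protein (10.1 kb and 24.6 kb), and Crim1, which binds bone morphogenetic proteins (6.99 kb and 21.2 kb), followed. Vmn2r30, Vmn2r36 and Vmn2r31 completed the 10, with 8.23 kb, 5.62 kb and 7.47 kb in Alb-D2KO against 20.9 kb, 16.7 kb and 18.5 kb in control. In the neonatal livers Pcgf5 had at most 1.499 kb and Crim1 at most 1.23 kb. For Pcgf5 the order by name was the opposite, with 13.6 kb in Alb-D2KO against 5.59 kb in control.

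**Figure D5:**
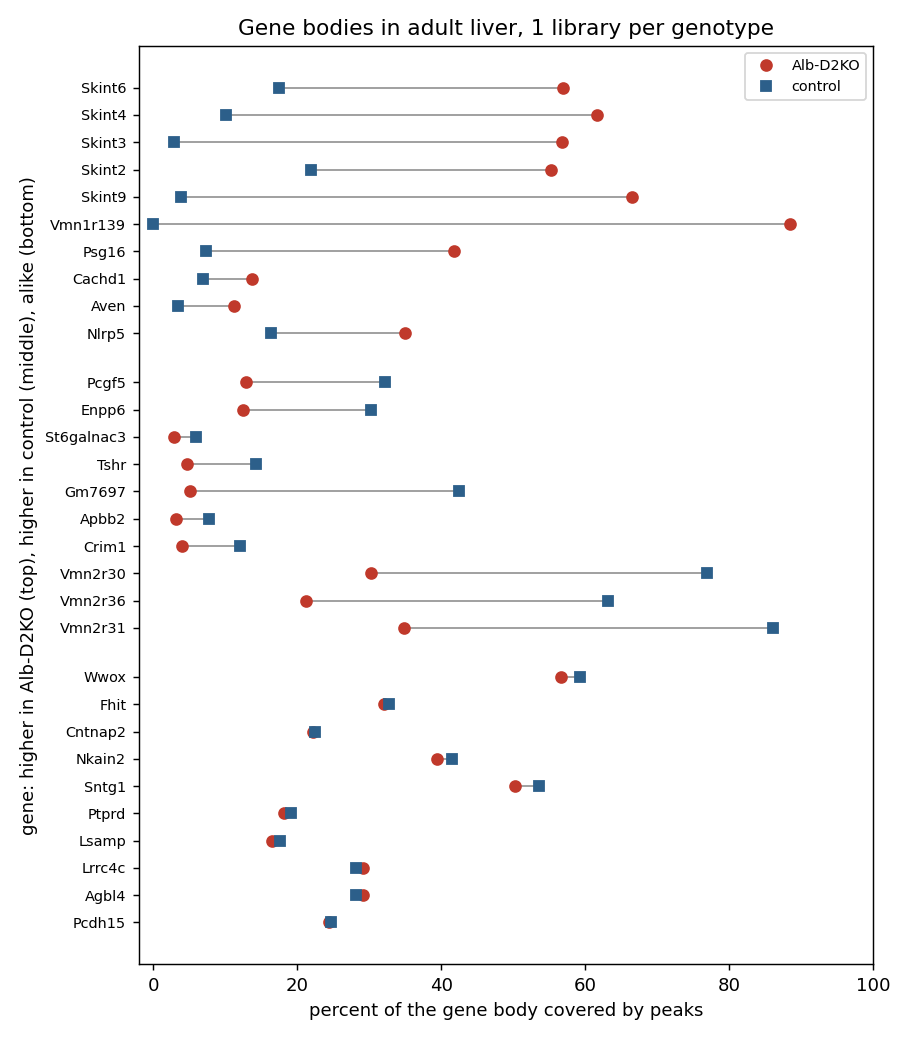
Percent of the gene body covered by peaks in Alb-D2KO (red circles) and control (blue squares) adult liver for the 10 protein-coding genes with the largest difference in covered bases each way and for the 10 alike genes with the most coverage. Vmn1r139, Skint9, Skint3 and Skint4 show the widest gaps in favour of Alb-D2KO, Vmn2r30, Vmn2r31 and Vmn2r36 those in favour of control, and the alike genes lie nearly on top of each other.

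Of the 874 windows with at least 50 kb in both livers, 681 were alike. The 5 alike windows with the most coverage were full or nearly so, with at least 99.1 kb in each liver, and 4 of them lay in the clusters of KRAB zinc finger genes on chromosome 4 that hold Zfp978, Zfp988, Zfp980, Zfp534, Zfp979 and Zfp986. The 5 windows had at least 97.3 kb at P1 and P5 as well. By name, 931 genes had at least 10 kb in both livers and a difference of 10% or less. The 10 with the most coverage were very long genes, among them Wwox (515 kb in Alb-D2KO against 542 kb in control) and Fhit (477 kb and 485 kb), which lie at fragile sites. Cntnap2, Nkain2, Sntg1, Ptprd, Lsamp, Lrrc4c, Agbl4 and Pcdh15, most of them genes of neurons, made up the rest, from 350 to 483 kb.

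These alike genes moved with age in different ways. The body of Wwox had 517 kb and 541 kb in the adult livers and between 14.2 and 37.8 kb in the neonatal ones, and that of Fhit 516 kb and 528 kb beside 192 to 253 kb. Cntnap2 had 498 kb and 504 kb in the adult and 824 to 907 kb in the neonatal livers. For Lrrc4c it was 382 kb and 370 kb in the adult and 922 to 960 kb in the neonatal livers. In each of these genes the adult livers lay closer to each other than to any neonatal liver. That closeness is in part given by the rule, since alike genes were picked for near-equal adult coverage by name. Agbl4, from the same list, did not follow this order. Its body was covered over 369 kb in the adult Alb-D2KO liver, 356 kb in the adult control and 352 kb in Alb-D2KO at P5.

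Gene lists were read by covered bases within the gene body, with all genes as the yardstick (9.70% of summed body length in Alb-D2KO and 10.1% in control, median difference 0.00 kb over 17592 genes, 0.796% of them called for Alb-D2KO and 1.09% for control). Genes that hepatocytes express strongly were nearly free of peaks, at 1.31% of the length of 33 genes in Alb-D2KO and 0.59% in control. None was called. Peak bases lay in 3 of them, Apoh, a plasma glycoprotein (4.82 kb and 2.91 kb), Hnf4a, a transcription factor of hepatocytes (2.62 kb and 1.02 kb), and Cyp3a11, a P450 enzyme (1.25 kb and none). The median difference over the 3 was 1.61 kb. Cyp3a11 had between 11.7 and 17.6 kb at P1 and P5.

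Thyroid hormone genes were also thinly covered. Of 30 genes, 8 had covered bases, the list had 11.3 kb and 17.2 kb in all, and 1 was called, for control, beside 1.09% of all genes. This was Ppargc1a, a co-activator, with 2.96 kb in Alb-D2KO against 8.09 kb in control. Thrb, the β receptor, had 2.94 kb and 2.13 kb, and Ncoa2, a co-activator, 3.73 kb and 4.68 kb. Among 27 genes that write, read or erase H3K9me3, 8 had covered bases and none was called, with Atf7ip2 at 34.4 kb and 33.2 kb, Atf7ip, a partner of SETDB1, at 18.6 kb and 22.5 kb, and the demethylase gene Kdm4d at 5.80 kb and 5.44 kb. Of 36 imprinted genes 20 had covered bases and none was called. Snrpn had 26.9 kb and 29.7 kb, Kcnq1ot1 27.3 kb and 28.6 kb, and Grb10 16.5 kb and 16.1 kb.

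Of 158 genes of drug metabolism 81 had covered bases, and 1 was called each way, beside 0.796% of all genes for Alb-D2KO and 1.09% for control. They were neighbours on chromosome 7 of the same family of sulfotransferases, Sult2a8 with 9.34 kb in Alb-D2KO against 3.92 kb in control, and Sult2a6 with 5.16 kb and 13.6 kb. Sult2a4, the most covered of the list, had 56.7 kb and 60.1 kb, Cyp2j8 48.5 kb and 50.5 kb, and Slco1a6, an anion transporter, 51.3 kb and 44.9 kb. Among the major urinary protein genes 12 of 49 had covered bases and none was called, with Mup6 at 14.1 kb and 16.8 kb.

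Among the large families with much H3K9me3, zinc finger and vomeronasal receptor genes had near-equal totals. Zinc finger genes had 3597 kb (28.4% of their length) in Alb-D2KO against 3644 kb (28.8%) in control, and of 266 with covered bases 1 was called for Alb-D2KO, Zfp521 (5.96 kb and 2.92 kb), and 4 for control, Zfp462, Zfp128, Zfp59 and Zfp658, beside 0.796% and 1.09% of all genes. The largest differences of these were those of Zfp462 (4.68 kb and 13.8 kb) and Zfp128 (0.19 kb and 9.28 kb). The most covered were Zfp804b (151 kb and 164 kb), Zfp935 (103.8 kb and 99.6 kb) and Zfp808 (101.8 kb and 99.9 kb). Vomeronasal receptor genes had 3127 kb (47.3%) and 3194 kb (48.3%), with 9 of 505 called for Alb-D2KO and 14 for control, beside 0.796% and 1.09% of all genes. The summed lengths were near-equal, so that the contrast of the Vmn1r block is not seen in the total of the family. Its most covered members were Vmn2r60 (65.2 kb and 53.0 kb), Vmn2r-ps54 (54.2 kb and 50.6 kb) and Vmn2r57 (50.5 kb and 51.6 kb). Olfactory receptor genes had 1891 kb (23.6% of their length) in Alb-D2KO against 2067 kb (25.8%) in control. Of 1136 with covered bases, 6 were called for Alb-D2KO and 7 for control, beside the same shares of all genes.

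The clustered protocadherin genes, which share overlapping bodies, had 1680 kb (33.1%) in Alb-D2KO against 1527 kb (30.1%) in control. The same bases count for more than 1 of these genes in their sum, median and calls, so the genes are not independent. The median difference was 2.79 kb in favour of Alb-D2KO over 53 genes. Of these, 2 were called for Alb-D2KO, beside 0.796% of all genes, Pcdhga7 (7.64 kb and 2.03 kb) and Pcdhgb4 (6.59 kb and 2.03 kb), and the longest, Pcdha1, had 150 kb and 144 kb. Long genes of neurons had 3497 kb (16.6%) and 3826 kb (18.2%), with a median of −7.20 kb over 19 genes and none called. Lrp1b had 544 kb and 631 kb and Macrod2 326 kb and 387 kb. The Hox genes had no covered base in either adult liver, and the keratin, histone cluster and ribosomal protein genes had 0.68%, 0.46% and 1.41% of their length covered in Alb-D2KO and 0.55%, 1.88% and 1.06% in control.

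Genes that mark other cells of the liver did not separate the livers by calls. Of 17 genes of blood cells 5 had covered bases, 13.8% of the length in Alb-D2KO and 15.0% in control, nearly all of it in Adgre1, the F4/80 antigen of macrophages (53.2 kb and 53.5 kb). Endothelial and stellate cell genes had 9.16% and 10.1%, with Reln at 66.3 kb and 75.7 kb, and cholangiocyte genes 9.59% and 10.2%, all of it in Cftr (25.1 kb and 26.6 kb). None of these 3 lists had a called gene. Peaks of a whole liver pool the chromatin of all its cells, so that a change in the mark and a change in the share of a cell type cannot be told apart.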

How the data were processed

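H3K9me3 and input DNA of liver had been sequenced for control and Alb-D2KO mice at 3 ages. Per the labels and the methods, the authors aligned reads to mm10 with BWA in Partek and called broad peaks with MACS2 at a p-value limit of 0.05, each H3K9me3 library over its own input, and named the peaks after GENCODE M24. The deposited lists give start and end of each peak, the −log10 of its p-value and q-value, a pileup signal in a scaling that is not stated, and a fold enrichment, the ratio over input. Those 4 scores are the authors'. They served as limits on −log10 p and for medians that are set side by side between the lists, although each list was scored over its own input and the depths are unknown. In 3 further lists, not used here, Alb-D2KO had been called against control in 1 direction, which is the authors' own comparison. The lists hold no read counts, so the depth per library is unknown, and no interval for a covered length was computed.

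Covered bases were summed per window of 100 kb and per gene with Python 3 scripts (numpy, pandas, scipy), which were tested on simulated lists. A window or gene was called at 2-fold with at least 20 kb or 5 kb on the larger side. Positions were compared with GENCODE M21 of GRCm38, in which 20823 listed transcripts had the same start in 100% of cases, and 96.2% of 19399 gene names matched. Repeats, CG dinucleotides and copies were read from the reference, with copies as exact matches on the autosomes, X and Y. Shares have Wilson 95% intervals. Named were the 10 windows and 10 genes with the largest difference each way, the 5 alike windows and 10 alike genes with the most coverage, 3 members of each gene list and the 3 widest lone peaks of each list. The members and lists were chosen with earlier results of these data known.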

Additional observations from a re-analysis of the deposited data

Results flagged for a closer look

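Some differences had the opposite order at another age. None of these was tested, since each age has 1 library per genotype. The Vmn1r block of chromosome 7 differed by 2268 kb (Alb-D2KO minus control) in the adult, 19.1 kb at P1 and −649 kb at P5, the Psg and Ceacam block by 322 kb, 18.7 kb and −144 kb, and the Scgb block by 258 kb, 1.63 kb and −342 kb. Among the windows of the Vmn1r block, those at 22300001 and 20200001 differed by 81.0 kb and 77.3 kb in the adult. They were lower in Alb-D2KO at P1 (−0.49 and −1.05 kb) and P5 (−15.5 and −21.6 kb).

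Of the 46 windows called for control in the adult, 14 were covered more in Alb-D2KO at both P1 and P5, beside 26.0% of all 20553 windows compared. Among the 10 windows named for control, called or not, 4 were of this kind. They were the Vmn2r30 window of chromosome 7 (−40.6 kb in the adult, 4.37 kb at P1 and 1.82 kb at P5), the Cep128 window of chromosome 12 (−38.5, 0.09 and 4.71 kb), the Gabrg1 window of chromosome 5 (−23.7, 1.01 and 5.78 kb) and the window of chromosome 15 at 49300001 (−21.6, 6.55 and 10.2 kb). The 2 Mb around Dio2 differed by −98.0 kb in the adult, −11.9 kb at P1 and 10.1 kb at P5.

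Chromosome X lay outside the comparison and had 10.2 Mb covered in adult Alb-D2KO liver and 9.85 Mb in control.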

How the results depend on the processing

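With 1 library per genotype no library could be left out. No paired analysis was possible because no result comes from a test and each group has 1 sample. The ratio of covered length stayed under 1, at 0.961 and 0.908 with −log10 p above 2 and 3 and 0.964 with peaks merged within 1000 bp. The 90 windows higher in Alb-D2KO became 15 with −log10 p above 3, 156 with a minimum of 10 kb, 186 by number of peaks 30 without chromosome 7 and 19 without chromosome 7 and the Skint block, both settings added after the values were seen. The 46 higher in control became 141 above a −log10 p of 2, 33 above 3, 83 with merged peaks, 2 at 3-fold, 157 with a minimum of 10 kb and 183 by number of peaks. The counts stayed within 1.5 times when control was scaled to the same total or windows were moved by 50 kb. Genes by name went from 861 and 870 to 72 and 102 above a −log10 p of 3, 395 and 358 with a minimum of 10 kb, 229 and 255 by number of peaks, and 140 and 192 by gene body, and control to 552 at 3-fold. The share of windows higher in Alb-D2KO with the same order at P1 was 44.7% and 6.67% above a −log10 p of 2 and 3, and at P5 47.7% and 20%, or 76.7% without chromosome 7. Without chromosome 7 and the Skint block it was 42.1% at P1 and 63.2% at P5. For control it was 15.2% at both ages above 3, where few windows keep peaks. Of the 40 named windows and genes that differ, none turned when scaled or merged, and above a −log10 p of 3 the difference was 0 for 20 and turned for 4. The chromosome 6 window at 18700001 turned above 2 and 3 (0.93 and 0.18 kb), as did above 3 the Vmn1r windows at 20300001 (−0.19 kb) and 22300001 (−1.34 kb) and Skint6 by name (−0.57 kb). The cause was not tested.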
